A study of Rattus norvegicus with 20 samples.

Results

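The insulin-like growth factor (IGF) genes described here are the ligands Igf1 and Igf2, the receptor Igf1r, and the binding proteins Igfbp2, Igfbp3, Igfbp4, Igfbp5 and Igfbp6. These 8 of the 35532 genes named on the array were chosen by gene name, among probes that are no controls, and they are read by 14 probes. RNA was measured on 20 single-colour Agilent arrays of primary heart cell cultures of neonatal rats, grown for 1 day before treatment, with total RNA taken in Trizol and labelled with Cy3. The treated cultures received celecoxib, a drug that blocks cyclo-oxygenase 2. They fall into 6 groups of 3 arrays, one for each of 24 h and 6 h of exposure to 1/25, 1/5 or 1 times a reference concentration, beside 2 untreated arrays. The labels give no absolute concentration, no vehicle, and no time for the untreated cultures. Nor is it stated that replicates came from different cultures, and the spread behind every p-value may therefore be technical.

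IGF-1 and IGF-2 are secreted growth factors that signal through the IGF-1 receptor, a tyrosine kinase, to the PI3K-AKT and RAS-MAPK pathways. In the heart they promote growth and survival of muscle cells, and non-muscle cells are a known source of them. The binding proteins hold most extracellular IGF, extend its life and limit its access to the receptor, and proteases such as PAPP-A (Pappa) release it by cutting them. The rat Igf1 gene is known to have alternative leader exons with promoters of their own, so probes near its 5′ end can read different transcripts.

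The deposited spot intensities were taken to log2 relative to the 75th percentile of each array, and a level below means that log2 value. Where groups are said not to overlap, this only describes their arrays. The share of all genes that part likewise is not given. Of all spots, 63.5% to 83.1% per array were well above background, the scanner software's call, and 5.71% to 9.24% were saturated. The arrays were scanned on 2 days, and scan day was a term in every test; day 2 held all 3 arrays of 1/5, 2 of 1/25 and 1 of concentration 1, each from the 6 h treatments, and day 1 the other 14. The culture label was checked against markers. All 8 cardiomyocyte markers (Tnnt2, Tnni3, Myh6, Myh7, Actc1, Ryr2, Myl7, Nppa) were well above background on all 20 arrays. Of 9 fibroblast markers, 8 were tested. The collagen genes Col1a2 and Col1a1 were saturated on 20 and 15 arrays and the fibroblast receptor gene Pdgfra on 15. The others averaged 1.24 (Col3a1), 1.20 (Postn), -2.21 (Thy1), -3.23 (Dcn) and -4.31 (Lum, well above background on 14 arrays). The endothelial markers Kdr, Pecam1 and Cdh5 were well above background on 20, 17 and 12 arrays, and Tie1 and Vwf on 2 each. Smooth muscle Tagln, Myh11 and Cnn1 and epicardial Upk3b, Msln and Tbx18 passed on 20 arrays, and epicardial Wt1 on 7. All 6 macrophage markers were tested, with Csf1r well above background on 11 arrays and the other 5 on 20. Of the erythroid genes, the globin gene Hbb was well above background on 0 arrays and Alas2 on 20. In such mixed samples fewer cells of a type and less RNA per cell cannot be told apart.

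Each probe is a 60-base oligo, and probe positions are those of the files (rat build rn3). The longest run of letters shared by probes of different members was 12 bases, between the second probe of Igfbp3 (chr14:87980756-87981650, minus strand, crossing an intron) and the probe of Igfbp6 (chr7:140964859-140964918, plus strand). They are shown, with the shared run in capitals, because it is the closest that the array comes to reading both genes with one sequence. The single receptor probe (chr1:123067493-123067552, plus strand, spotted 10 times) and the Igfbp2 probe that never rose above background (chr9:72114139-72114198, plus strand) are shown in lower case.
Igfbp3: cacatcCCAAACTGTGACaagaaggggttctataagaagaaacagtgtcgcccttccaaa
Igfbp6: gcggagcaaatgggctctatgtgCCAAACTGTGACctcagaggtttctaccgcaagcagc
Igf1r: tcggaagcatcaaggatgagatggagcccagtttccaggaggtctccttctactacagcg
Igfbp2: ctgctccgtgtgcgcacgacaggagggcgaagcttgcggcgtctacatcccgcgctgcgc

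Of the 8 genes, 6 (Igf1, Igf2, Igf1r, Igfbp3, Igfbp4 and Igfbp6) had a probe well above background on all 20 arrays and were tested. Igfbp2, a binding protein with a preference for IGF-2, was well above background on 0 of 20 arrays. The 2 probes of Igfbp5, which in bone and muscle binds IGF in the matrix, passed on 4 and 7 of 20 arrays and in no group on every array. Their levels ran between -6.71 and -4.83 for the first and between -7.41 and -3.89 for the second, where order has little meaning. These genes therefore had no test. In the RefSeq gene order of GRCr8, Igfbp2 and Igfbp5 are direct neighbours. Igfbp1 and Igfbp3 are neighbours too, and there detection differed, with Igfbp1 above background on 0 arrays and Igfbp3 on 20.

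Read by 1 probe a gene, the brightest, none of the 6 tested members passed the test in any of the 11 comparisons. For Igf1 that probe was saturated on 11 of 20 arrays, both untreated ones included, so its result says nothing of stability. Against untreated, limma called 0 of 6 at 1/25 for 6 h, where 11.6% of all genes were called, 0 of 6 at 1/5 for 6 h (1.14% of all genes) and 0 of 6 at concentration 1 for 6 h (8.21%). It called 0 of 6 at 1/25 for 24 h (0.855% of all genes), at 1/5 for 24 h (1.4%) and at concentration 1 for 24 h (0.451%). For 24 h over 6 h it called 0 of 6 at 1/25 (2.3% of all genes), at 1/5 (0.036%) and at concentration 1 (1.4%). For concentration 1 over 1/25 it called 0 of 6 at 6 h (0%) and at 24 h (0.00721%). Of the 66 member tests, 5 had an unadjusted p below 0.05: Igf1 at 1/25 for 6 h, Igf1r at 1/5 for 24 h and Igfbp6 at 1/25 for 24 h, each against untreated, and Igfbp3 for 24 h over 6 h at concentration 1 and for concentration 1 over 1/25 at 24 h. The share of all genes at that threshold is not given, so this count is no result about the members. In the comparisons with untreated the members' median log2 difference lay between -0.31 (concentration 1 for 24 h) and 0.37 (1/25 for 6 h). The medians of all genes lay between -0.10 and 0.00. The members' medians include Igf1 by its saturated probe. At 1/25 for 6 h an Igf1 probe saturated on no array gave -0.29, and the 0.37 rests partly on the saturated one. The 6 comparisons with untreated share the same 2 arrays. The background rested on single arrays: at 1/25 for 6 h it was 0.0793% without replicate 1 of that group and 24.9% without its replicate 2, and at concentration 1 for 6 h it was 0.578% without untreated replicate 1 and 18.2% without untreated replicate 2, with 0 members called each time.

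**Figure D1:**
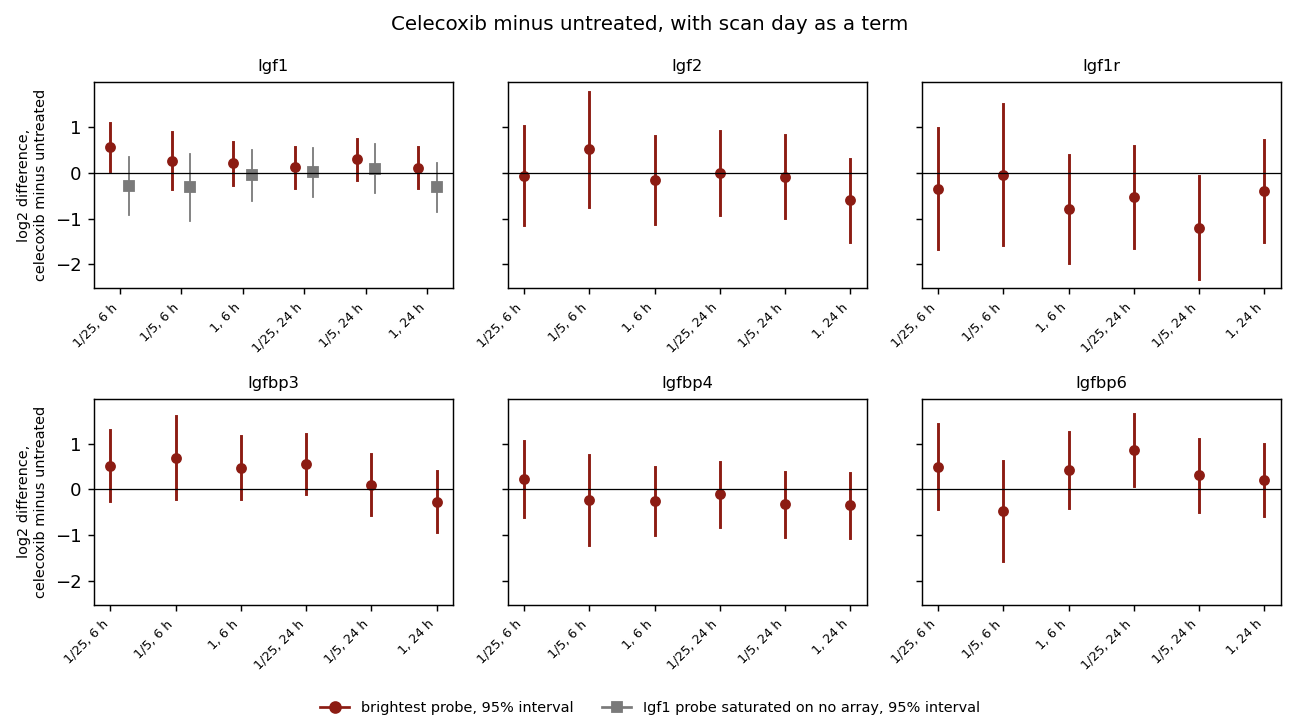
Log2 difference of each tested IGF gene, celecoxib minus untreated (vertical axis), for the 3 concentrations at 6 h and at 24 h (horizontal axis). Points are limma estimates with scan day as a term and lines are 95% intervals; nearly all include 0, with the exceptions of Igf1r at 1/5 for 24 h, Igfbp6 at 1/25 for 24 h and the Igf1 probe that was saturated on 11 of 20 arrays, whose values are no measured difference, at 1/25 for 6 h; grey squares show the Igf1 probe saturated on none.

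The ligand Igf1 was read by 4 probes at different places of the gene, of which 1 was called. Along rn3 chromosome 7, plus strand, an upstream 5′ probe has an annotated span of chr7:24552241-24557334, which at 5094 bases crosses an intron. A middle 5′ probe lies at chr7:24554021-24554080, and a downstream 5′ probe next to it spans chr7:24554081-24557319, again across an intron. The 3′ probe lies at chr7:24624986-24625045. Against the RefSeq promoter window of Igf1 (GRCr8), all 60 bases of the middle probe matched from 71 to 12 bases before the annotated start. The first 57 bases of the downstream probe matched from 11 bases before to 46 bases after that start. Which exons these probes read could not be assigned.

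The downstream 5′ probe of Igf1 was lower with celecoxib at 1/25 and at concentration 1 for 6 h. At 1/25 for 6 h it read -5.64, -2.95 and -4.34, against -0.88 and -2.32 on the untreated arrays. All 3 celecoxib arrays lay below both untreated arrays, and the lowest of them was not well above background. With each probe fitted on its own, which was chosen after the data were seen, the log2 difference was -3.90 (SE 0.69, adjusted p 0.00623). Without the scan day term the difference was -2.71 (adjusted p 0.0427). At concentration 1 for 6 h it read -4.23, -3.16 and -2.12, against -0.88 and -2.32 in untreated. These groups overlapped by 1 array, and the difference of -2.16 (SE 0.61) had an adjusted p of 0.0434. At 1/5 for 6 h it read -2.21, -2.38 and -2.71, which overlaps with untreated. The means there were -2.43 at 1/5 and -1.60 in untreated, while the fit with scan day as a term gave a difference of -2.62 (SE 0.80, adjusted p 0.104), all 3 of these arrays being of day 2. At 24 h the differences were -1.37 (SE 0.58) at 1/25, -2.10 (SE 0.58) at 1/5 and -1.88 (SE 0.58) at concentration 1, with adjusted p of 0.267, 0.0791 and 0.152. In every comparison with untreated the estimate was below 0.

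Some of these calls were lost when 1 array was left out. At 1/25 for 6 h the downstream probe gave -3.18 (adjusted p 0.0638) without untreated replicate 1 and -3.62 (adjusted p 0.14) without the celecoxib replicate 1. At concentration 1 for 6 h it gave -1.44 (adjusted p 0.446) without untreated replicate 1 and -1.83 (adjusted p 0.171) without celecoxib replicate 1. It gave -1.57 (adjusted p 0.266) there without the scan day term and -2.09 (adjusted p 0.0911) on scan day 1 alone. With the replicate block the adjusted p was 0.00944 at 1/25 and 0.0591 at concentration 1. The middle 5′ probe, spotted 10 times, was well above background on 10 of 20 arrays, among them 1 of 2 untreated and 0 of 3 at 1/25 for 24 h, so no differences are given for it; it was called in none of the 6 comparisons with untreated.

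The upstream 5′ probe of Igf1 was called in no comparison. It was saturated on no array and well above background on all 20. It averaged 1.42 ± 0.35 at 1/25, 1.49 ± 0.20 at 1/5 and 1.54 ± 0.21 at concentration 1 for 6 h (SD, n = 3 each), against 1.49 ± 0.38 in untreated (n = 2). At 24 h the means were 1.50 ± 0.02, 1.59 ± 0.23 and 1.18 ± 0.06 in the same order of concentrations. Its differences from untreated ran between -0.32 and 0.09 (SE between 0.23 and 0.32), and all groups overlapped with untreated except concentration 1 for 24 h, which lay below both arrays with 1.20, 1.10 and 1.22 against 1.76 and 1.23. At 24 h concentration 1 also lay below 1/25 on every array, with 1.20, 1.10 and 1.22 against 1.49, 1.53 and 1.49. That difference of -0.33 (SE 0.21) had an adjusted p of 1. Whether the upstream and downstream probes differ in their response was not tested.

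The 3′ probe of Igf1, the brightest and so the one used for the gene, was saturated on 11 of 20 arrays. These were all arrays of untreated and of 1/25 and concentration 1 for 24 h, 2 of 3 at 1/5 for 24 h and 1 of 3 at 1/25 for 6 h. Its level is there only a bound, so no fold is given. Over the 20 arrays its log2 signal spanned 0.522 while the scale factor of the arrays spanned 1.18, and its level correlated with the inverse of that factor (Pearson r 0.927, n = 20 arrays, a description). For the upstream probe the same r was -0.214. At 1/25 for 6 h, where Igf1 had an unadjusted p below 0.05 through this probe, the unsaturated upstream probe gave -0.29 (SE 0.27).

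**Figure D2:**
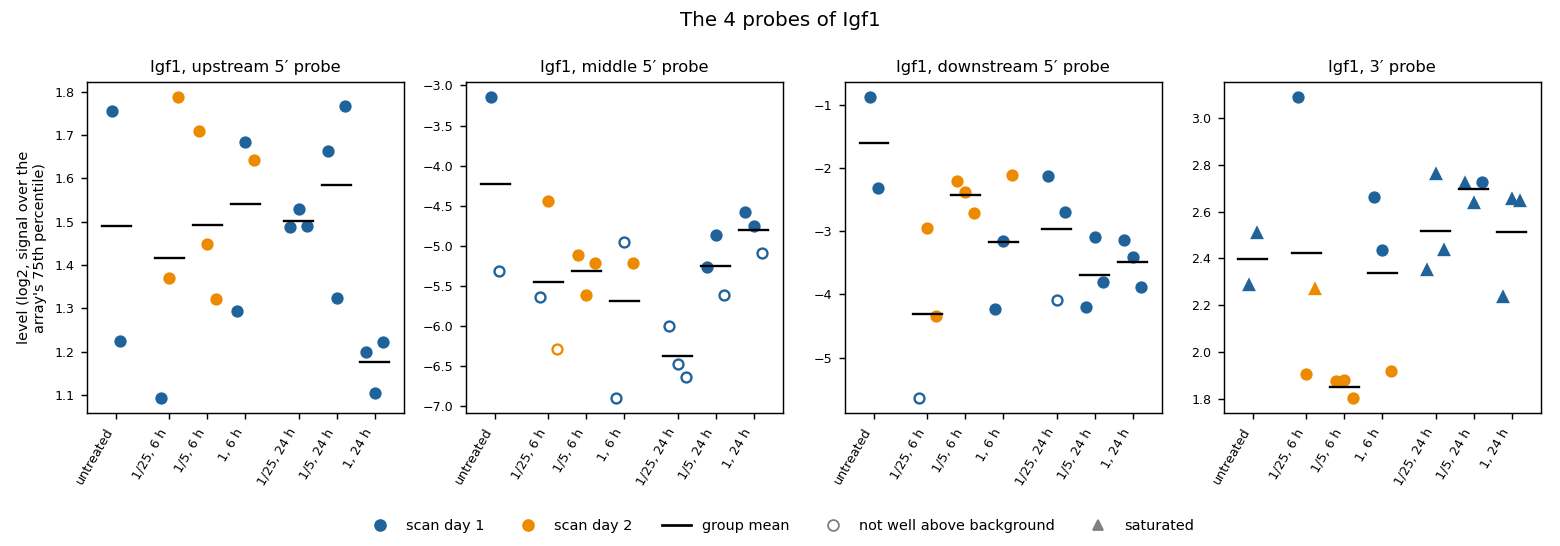
Levels of the 4 Igf1 probes on each of the 20 arrays (vertical axes, log2 signal over the array's 75th percentile, scaled separately) for untreated and for celecoxib at 1/25, 1/5 and 1 for 6 h and 24 h. Colours mark the scan day, open circles spots not well above background, triangles saturated ones and bars group means; the downstream 5′ probe reads -0.88 and -2.32 in untreated and lies below -2 on all 18 celecoxib arrays.

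Igf2, the fetal growth ligand, varied more between replicates than between groups. At 6 h it averaged -1.52 ± 0.92 at 1/25, -1.28 ± 0.27 at 1/5 and -1.28 ± 0.57 at concentration 1 (SD, n = 3 each), against -0.78 ± 0.61 in untreated (n = 2). At 24 h it averaged -0.79 ± 0.32, -0.87 ± 0.64 and -1.39 ± 0.47 in the same order. Single arrays ran between -2.56 at 1/25 for 6 h and -0.35 in untreated, and every celecoxib group overlapped with untreated. With scan day as a term the 6 h differences from untreated were -0.06 (SE 0.51) at 1/25, 0.52 (SE 0.59) at 1/5 and -0.16 (SE 0.45) at concentration 1, so the direction at 1/5 turned against that of the means. The estimate at concentration 1 for 24 h was -0.60 over untreated (95% interval -1.52 to 0.31) and likewise -0.60 over 1/25 (95% interval -1.42 to 0.21). Both intervals include 0.

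The receptor gene Igf1r was lower than untreated on average in all 6 celecoxib groups, without passing the test in any. On the 3 arrays of 1/25 for 6 h it read -0.03, -0.44 and -0.39, against 1.18 and 0.38 in untreated. The difference there was -0.34 (SE 0.62, adjusted p 0.712) with scan day as a term and -1.07 (adjusted p 0.236) without it. At 1/5 for 6 h it read -0.49, -0.25 and -0.30, and at 1/25 for 24 h 0.27, 0.24 and 0.24. In these 3 groups every array lay below both untreated arrays, which were the same 2 each time. At concentration 1 it read 0.75, -0.31 and -1.56 at 6 h and 0.46, 1.16 and -0.47 at 24 h, and both groups overlapped with untreated. The largest estimate was at 1/5 for 24 h, where arrays read -1.39, 0.50 and -0.37, with a difference of -1.20 (SE 0.53, 95% interval -2.32 to -0.07, p 0.0383, adjusted p 0.212). The estimate at 1/5 for 6 h depended on the scan day term, with -0.04 (SE 0.73) in the fit that has it and -1.13 (adjusted p 0.252) without it, since all 3 of those arrays were scanned on day 2 and the untreated arrays on day 1.

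**Figure D3:**
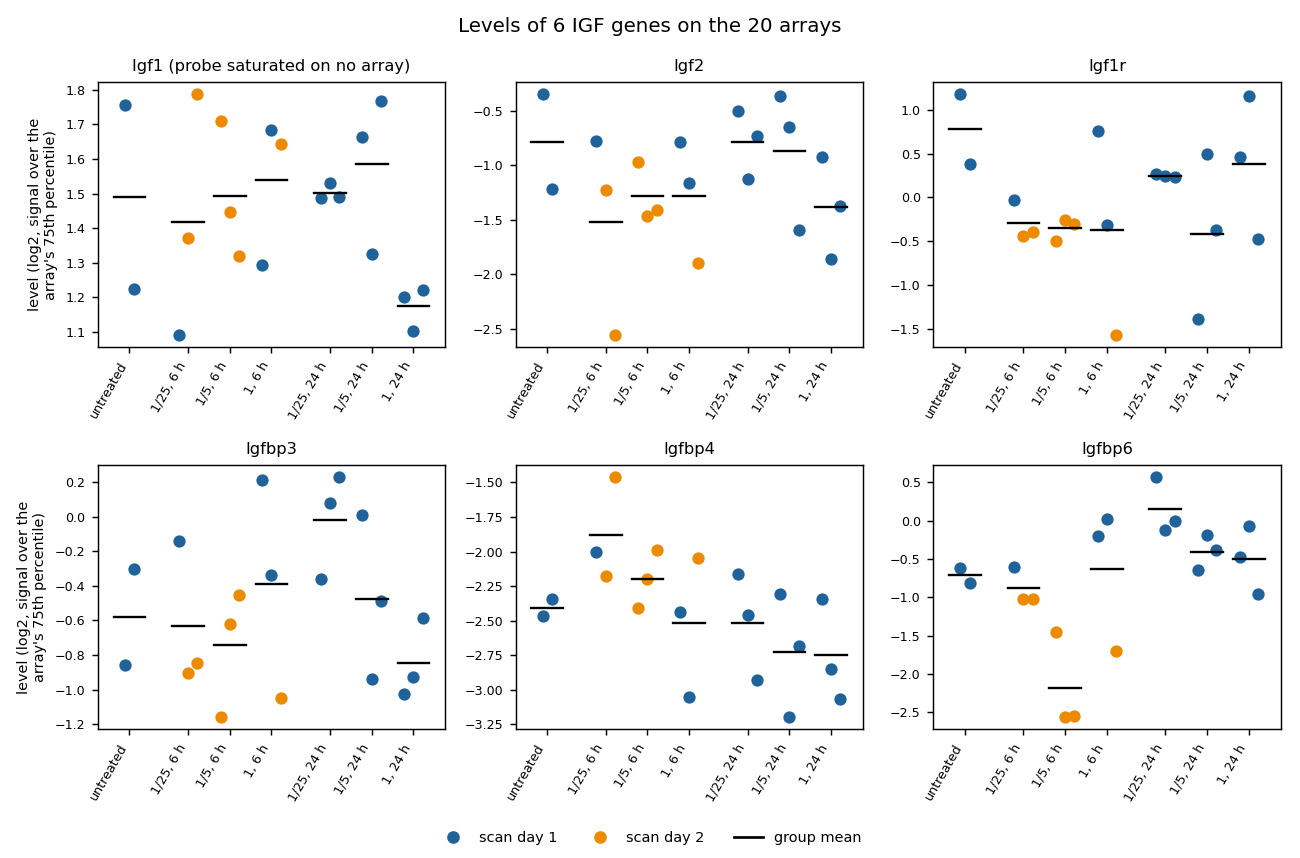
Levels of the 6 tested IGF genes on each of the 20 arrays (vertical axes, log2 signal over the array's 75th percentile, scaled separately), for untreated and for celecoxib at 1/25, 1/5 and 1 for 6 h and 24 h. Igf1 is shown by its unsaturated upstream probe, colours mark the scan day and bars group means; in Igfbp6 the 3 arrays of 1/5 for 6 h, all of scan day 2, read lowest on average.

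Igfbp3, the main carrier of IGF in serum, had the smallest unadjusted p of all members, for concentration 1 over 1/25 at 24 h. Its first probe (chr14:87979639-87979698) read -1.02, -0.93 and -0.59 at concentration 1, against -0.36, 0.08 and 0.23 at 1/25. No array of concentration 1 reached one of 1/25. The difference of -0.83 (SE 0.28, 95% interval -1.42 to -0.24, a fold of 0.563) had p 0.00905 and, over all genes, an adjusted p of 0.843. The second probe read -3.43, -3.17 and -2.57 at concentration 1, against -2.35, -2.22 and -2.19 at 1/25, again without overlap. Its difference was -0.81 (SE 0.31, adjusted p 0.914). At 1/5 for 24 h the first probe read 0.01, -0.94 and -0.49, and its mean of -0.47 lay between -0.85 at concentration 1 and -0.02 at 1/25. At 6 h the probes parted, with differences between concentration 1 and 1/25 of -0.05 (SE 0.29) for the first and 1.13 (SE 0.33, adjusted p 0.801) for the second. For 24 h over 6 h at concentration 1 the first probe gave -0.74 (SE 0.29, p 0.0234, adjusted p 0.22), with -1.02, -0.93 and -0.59 at 24 h against 0.21, -0.34 and -1.05 at 6 h, which overlap.

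The slide moved with concentration at 24 h. All 3 arrays of 1/25 lay on slide 4, those of concentration 1 on slides 2 and 3, and those of 1/5 on slides 3 and 4. The array of 1/5 on slide 4 read -0.49 for the first Igfbp3 probe, below all arrays of 1/25 on that slide, and its 2 arrays on slide 3 read 0.01 and -0.94, beside -0.93 and -0.59 at concentration 1 there. Of 8 tested fibroblast markers 0 were called between concentration 1 and 1/25 at 24 h and 5 lay above 0, with a median of 0.03, and of 3 smooth muscle markers 0 were called and 0 lay above 0, with a median of -0.36. Among the fibroblast markers, Col1a1 and Pdgfra were saturated on 15 arrays and Col1a2 on 20. The part of slide and of cell makeup in the Igfbp3 values was not tested.

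Igfbp4, a binding protein that is mainly inhibitory and the best known target of PAPP-A, was read by 2 probes, of which the second was called once. The first (chr10:87848583-87848642) lay at -2.44, -3.06 and -2.05 at concentration 1 for 6 h, against -2.47 and -2.35 in untreated, a difference of -0.26 (SE 0.35, adjusted p 0.634). The second (chr10:87843934-87843993) read -2.78, -3.25 and -2.62, against -1.99 and -2.35 in untreated. All 3 celecoxib arrays lay below both untreated arrays on the second probe, and with each probe on its own the difference of -0.80 (SE 0.22) had an adjusted p of 0.0434. That call was lost under 8 of 9 other settings, with -0.42 (adjusted p 0.272) when arrays were scaled by their median, and without untreated replicate 1 the adjusted p was 0.378. At 24 h the second probe lay at -2.50, -2.63 and -2.91 at concentration 1, against -2.01, -2.27 and -2.11 at 1/25, with no overlap, a difference of -0.55 (SE 0.19) and an adjusted p of 0.858. The first probe gave -0.24 (SE 0.30) there, with overlapping arrays.

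Over the 11 kept member probes tested singly, limma called 2 at concentration 1 for 6 h over untreated, the downstream Igf1 probe and the second Igfbp4 probe, where 7.51% of all probes were called. It called 1 at 1/25 for 6 h (10.6% of all probes), the same Igf1 probe. It called 0 at 1/5 for 6 h (0.895% of all probes), and 0 at 1/25 (0.829%), 1/5 (1.23%) and concentration 1 (0.385%) for 24 h, each against untreated. For 24 h over 6 h it called 0 at 1/25 (2.12%), 1/5 (0.0189%) and concentration 1 (1.27%), and for concentration 1 over 1/25 it called 0 at 6 h (0%) and at 24 h (0.0063%). At an unadjusted p below 0.05 there were between 0 and 4 of the 11 probes in a comparison. The share of all probes at that threshold is not given, so these counts are no result about the members. The 2 called of 11 at concentration 1 and the 1 of 11 at 1/25 for 6 h stand beside these background shares, and the probes of a gene are not independent.

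Igfbp6, which prefers IGF-2, was higher on all 3 arrays of 1/25 for 24 h, with 0.57, -0.12 and -0.01, than in untreated, with -0.61 and -0.81. The difference was 0.86 (SE 0.37, 95% interval 0.07 to 1.65, p 0.0355), with an adjusted p of 0.278. At 1/5 for 24 h it read -0.65, -0.19 and -0.38 and at concentration 1 for 24 h -0.48, -0.07 and -0.96, both overlapping with untreated. At concentration 1 over 1/25 for 24 h the difference was -0.65 (SE 0.33, adjusted p 1). At 1/5 for 6 h it read -1.45, -2.56 and -2.54, below both untreated arrays and below the 1/5 arrays of 24 h. The estimates of this group hung on the scan day term. With it, 24 h over 6 h at 1/5 gave 0.77 (SE 0.49, adjusted p 0.672), and without it 1.78 (adjusted p 0.0322). Scan day 2 held all arrays of 1/5 for 6 h and none of 24 h, so no within-day value exists. On replicate 3 of concentration 1 for 6 h, also of day 2, Igfbp6 read -1.69, against -0.20 and 0.02 on the arrays of day 1 in the same group.

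**Figure D4:**
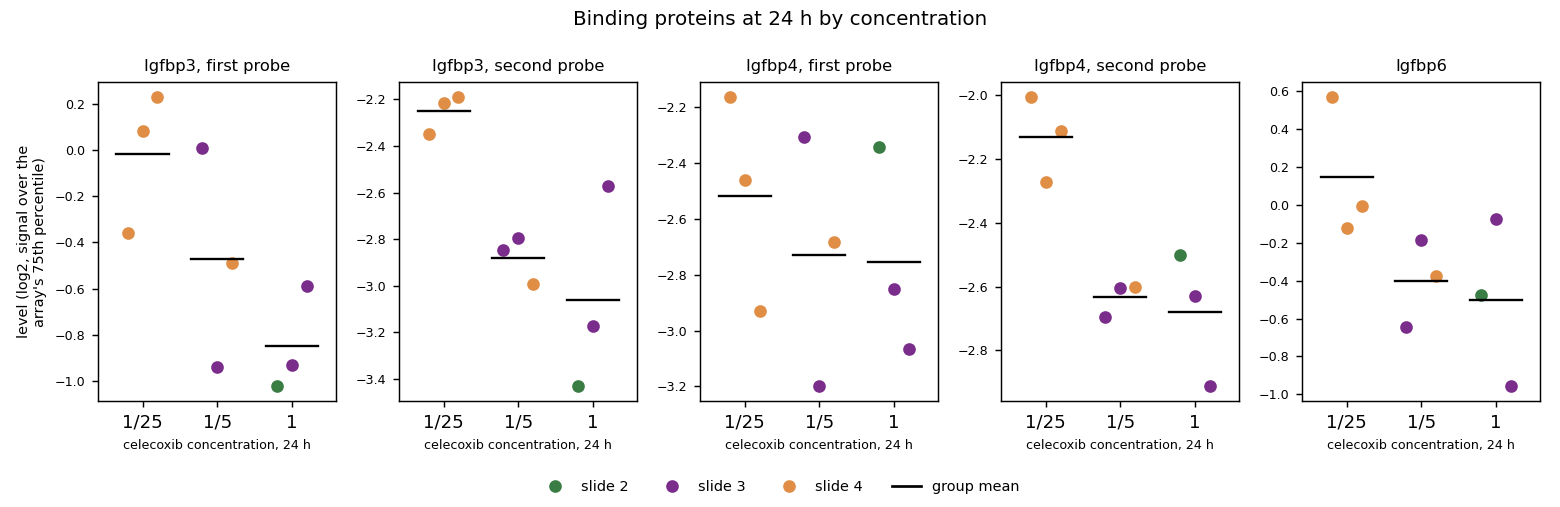
Levels of Igfbp3 (both probes), Igfbp4 (both probes) and Igfbp6 at 24 h (vertical axes, log2 signal over the array's 75th percentile, scaled separately) by celecoxib concentration. Points are arrays coloured by slide and bars are group means; on both Igfbp3 probes and the second Igfbp4 probe all arrays of concentration 1 lie below all arrays of 1/25, which share slide 4.

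The other genes of the IGF axis were read from a list of 33, of which 27 were tested: receptors, binding protein proteases and their inhibitors, adaptors and the downstream kinases. At 6 h 3 of 27 fell at 1/25 and 0 rose, 2 fell and 0 rose at 1/5, and 3 fell and 0 rose at concentration 1, each against untreated, beside 11.6%, 1.14% and 8.21% of all genes called. Most calls over all genes were lower too, 2483 against 728 higher at 1/25, 270 against 47 at 1/5 and 1781 against 495 at concentration 1. At 1/25 and at concentration 1 the list's share thus lay near that of all genes. The list's median differences were -0.19, -0.13 and -0.08, beside -0.10, -0.01 and -0.02 over all genes. At 24 h 0 of 27 were called at each concentration against untreated. The 6 h counts moved with single arrays, as did the share of all genes called. Without untreated replicate 1 they were 1, 0 and 0 at 1/25, 1/5 and 1, beside 1.21%, 0.137% and 0.578% of all genes. Without untreated replicate 2 they were 7, 2 and 5, beside 22.2%, 5.08% and 18.2%. Without replicate 1 of 1/25 for 6 h the count there was 0, beside 0.0793%. Without the scan day term they were 2, 1 and 0, beside 5.99%, 6.55% and 0.429%. Those called at 6 h were Pappa, the protease that cuts Igfbp4 and Igfbp5, Irs3, a rodent docking protein of the insulin and IGF-1 receptors, and Shc1, an adaptor to the RAS pathway.

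Pappa lay at -0.61, -1.20 and -0.998 at 1/25 for 6 h, at -1.32, -1.71 and -1.59 at 1/5 for 6 h and at -0.56, -0.52 and -1.01 at concentration 1 for 6 h, against 0.06 and 0.73 in untreated. All 9 arrays of 6 h lay below both untreated arrays. The differences were -1.01 (SE 0.28, adjusted p 0.0321), -1.46 (SE 0.32, adjusted p 0.0453) and -0.93 (SE 0.25, adjusted p 0.0334) at 1/25, 1/5 and 1. The second probe of Pappa gave -1.53 (SE 0.36), -1.73 (SE 0.42) and -1.89 (SE 0.32), with adjusted p over all probes of 0.0195, 0.0651 and 0.00553. At 24 h the first probe gave -0.40, -0.69 and -0.56 (SE 0.23 each) at 1/25, 1/5 and 1, none called. The second gave -1.25, -1.24 and -0.69 (SE 0.31 each) in the same order, with adjusted p of 0.0716, 0.0596 and 0.308. The calls of the first probe were near the threshold. Of the other settings 8 of 14 kept the call at 1/25 for 6 h, 6 of 13 at 1/5 and 5 of 14 at concentration 1. At concentration 1 the estimates under those settings ran between -1.41 and -0.55. At concentration 1 for 6 h 0 of 5 fits that left out 1 array kept the call, with adjusted p between 0.054 and 0.13, as did 0 of 5 at 1/5 and 3 of 5 at 1/25. The replicate block gave 0.0517 at concentration 1 and 0.0751 at 1/5.

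Irs3 lay at -1.45, -1.84 and -1.48 at concentration 1 for 6 h and at -2.13, -0.78 and -1.56 at 1/25 for 6 h, against -0.19 and -0.24 in untreated, with no overlap. The differences were -1.56 (SE 0.37, adjusted p 0.0224) and -1.65 (SE 0.42, adjusted p 0.0238). Of the other settings 8 of 14 kept the call at concentration 1 and 9 of 14 at 1/25. At 1/5 for 6 h it lay at -1.42, -1.47 and -1.14, and the difference of -1.69 (SE 0.49) was not called. Without untreated replicate 1 the differences were as large, with -1.53 (adjusted p 0.176) at concentration 1 and -1.62 (adjusted p 0.134) at 1/25, and without replicate 1 of 1/25 it was -1.12 (adjusted p 0.399) there. All 9 celecoxib arrays of 24 h also lay below both untreated arrays, between -1.65 and -0.48.

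Shc1 had the smallest adjusted p of the list at 6 h, but its arrays parted by scan day. It lay at -1.65, -1.61 and -0.07 at concentration 1 for 6 h, against 0.12 and -0.31 in untreated, and the array within the untreated range was that of scan day 2. At 1/25 for 6 h it lay at -1.54, 0.05 and -0.24, where the last 2 were of day 2, and at 1/5 for 6 h, all day 2, at -0.16, -0.20 and -0.47. With scan day as a term the differences were -1.49 (SE 0.27, adjusted p 0.00684), -1.69 (SE 0.32, adjusted p 0.0292) and -1.52 (SE 0.24, adjusted p 0.00351) at 1/25, 1/5 and 1. Without that term they were -0.48, -0.19 and -1.02, with adjusted p of 0.519, 0.84 and 0.251. Without untreated replicate 1 the adjusted p was 0.0671, 0.121 and 0.0605 in the same order, and the second, weaker Shc1 probe was called in none of the 3. Shc1 was also the one list gene called for 24 h over 6 h, higher by 0.94 (SE 0.22, adjusted p 0.046) at concentration 1, where 0 of 6 fits that left out 1 array kept the call, although the difference was 0.89 or more in each. The other comparisons of 24 h with 6 h and of concentrations called 0 of 27.

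**Figure D5:**
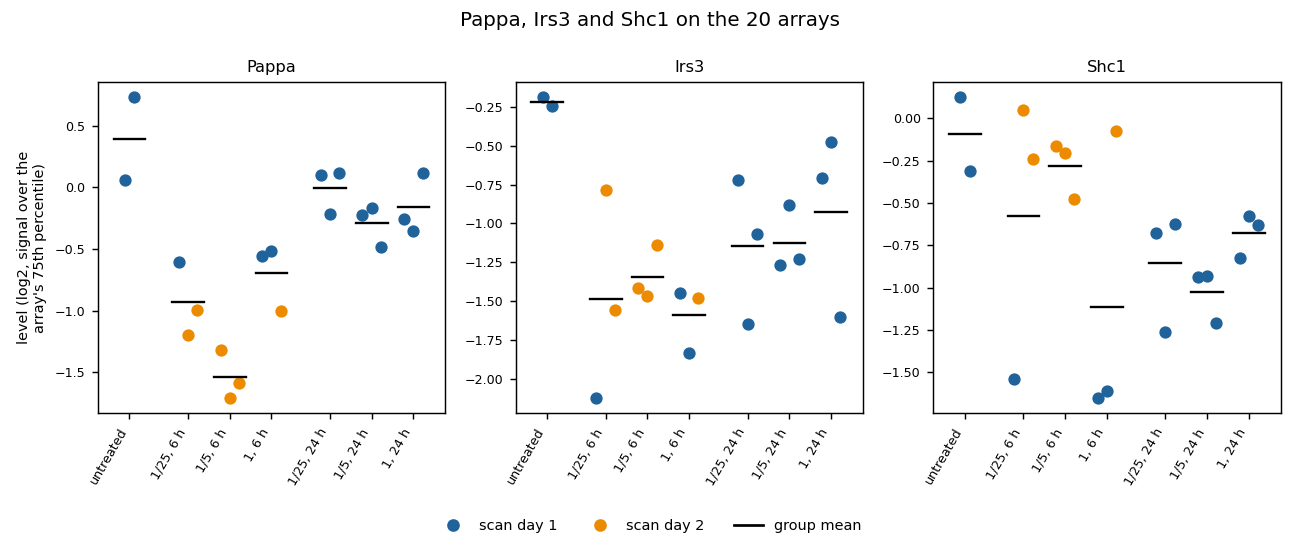
Levels of Pappa, Irs3 and Shc1 on each of the 20 arrays (vertical axes, log2 signal over the array's 75th percentile, scaled separately), for untreated and for celecoxib at 1/25, 1/5 and 1 for 6 h and 24 h. Colours mark the scan day and bars group means; all 9 arrays of 6 h lie below both untreated arrays for Pappa and Irs3, while for Shc1 5 of the 6 arrays of scan day 2 do not.

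Of the markers of other cells, the macrophage gene Mrc1 was higher than untreated in all 6 celecoxib groups. It was called in 5, by 1.33 to 1.91, and not at 1/5 for 6 h (1.47, adjusted p 0.112). The macrophage list of 6 went both ways, with 3 above 0 at 1/5 and 3 at concentration 1 for 6 h. At 24 h 4, 4 and 5 lay above 0 at 1/25, 1/5 and 1. Cd14 gave -0.97 at 1/5 and -1.04 at concentration 1 for 6 h, neither called. Cd14 was lower at 1/25 for 6 h by -1.51 (SE 0.37, adjusted p 0.0208). Of the 6 macrophage markers 2 lay above 0 at 1/25 for 6 h, with a median of -0.43. The fibroblast gene Lum (-1.64, SE 0.47, adjusted p 0.0371) and the erythroid gene Alas2 (-1.65, SE 0.46, adjusted p 0.034) were lower there too. Over the fibroblast list 6 of 8 lay above 0 there, with a median of 0.26. Of these 8, Col1a1 and Pdgfra were saturated on 15 arrays and Col1a2 on 20, where their levels are only bounds. The others were saturated on 0 arrays, and beside Lum Col3a1 gave 0.74, Dcn 0.17, Postn 0.07 and Thy1 -0.12. None of the 8 cardiomyocyte markers was called in any of the 11 comparisons, and Actc1 and Tnnt2 were saturated on 20 and 16 arrays. Against untreated at 6 h, 7 of 8 lay above 0 at each concentration, with medians of 0.64 at 1/25, 0.50 at 1/5 and 0.50 at concentration 1, beside -0.10, -0.01 and -0.02 over all genes. The part of cell makeup in the Igf1, Igfbp4, Pappa, Irs3 and Shc1 values was not tested.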

How the data were processed

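The deposited scanner files hold the intensity of each spot in linear units (Agilent Feature Extraction 9.5.3.1, design 014879, per the file headers). The authors also deposited values as a linear ratio, and 99.6% of these lie within 1% of the processed signal divided by the array median and then by the mean of both untreated arrays. Their column medians run between 0.826 and 1.27. It served as an alternative. Per the file headers, probe positions are in rn3.

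The processed signal was taken to log2 minus log2 of the array's 75th percentile. Outlier spots were dropped and spots of a probe averaged. Of 41012 probes, 31739 were kept, those that passed the background call throughout at least 1 group. The brightest kept probe stood for each of 27743 genes.

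limma 3.58.1 (R 4.3.3, data.table version 1.17.8, statmod 1.5.0) fitted all 20 arrays with 7 group means and scan day (12 residual degrees of freedom, 15.3 after moderation). Tests were two-sided, Benjamini-Hochberg adjusted over all genes and called below 0.05. The fit was run on simulated normal values only for concentration 1 for 24 h over untreated. All arrays of that comparison are of scan day 1, so this says nothing of the 6 h comparisons. The number of arrays limits the precision.

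The members, the lists, the comparisons and the naming rule (all members, up to 4 called axis genes a comparison, and the 2 genes most alike each member) were chosen with earlier results of these data known. Fits of single probes, and all alternatives for them and the axis genes, were added after seeing the data. Names come from RefSeq tables (GRCr8) or the files. Deviations of same-numbered arrays of different groups had a median r of -0.00409 over 57 pairs, with 11 above 0.1. That does not settle whether they were paired.

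Alternatives were no scan day term, scan day 1 alone, slide as a random block, a replicate block, array weights, median scaling, quantile normalization, normexp (offset 50), other filters on dim probes, the brightest unsaturated probe, the mean over probes, the authors' table, and leaving out each array.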

Additional observations from a re-analysis of the deposited data

How the results depend on the processing

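Across the alternatives, the count of members called differed from 0 in 5 of 212 fits. At 1/25 for 6 h over untreated, 1 member was called, Igf1, under median scaling (adjusted p 0.0405, with 21.3% of all genes called) and with the authors' table (adjusted p 0.041, 21% of genes). These rest on the saturated 3′ probe, so no difference is given. The mean over probes also called 1, again Igf1, but with the direction reversed (-1.29, adjusted p 0.0321), and that mean includes both weak 5′ probes. For 24 h over 6 h at 1/5, 1 member was called without the scan day term, Igfbp6 (1.78, adjusted p 0.0322), and 1 with the unsaturated probe and no scan day term (Igfbp6, 1.78, adjusted p 0.0328), an alternative added after seeing the data. Leaving out each array in turn, slide as a random block and the replicate block called 0 members in each of the 11 comparisons. The labels do not say whether replicate numbers pair arrays across groups. Of 1272 log2 differences of single members under an alternative, 1206 kept their side of the threshold and their direction, or turned sign by less than 1 SE without a call, 61 turned sign by more without a call, 4 passed the threshold and 1 reversed. Under median scaling the median of all genes was 0.442 at 1/25 for 6 h, beside -0.10 with the 75th percentile. Saturation limits Igf1, and signal near background limits Igfbp2, Igfbp5 and the weak 5′ probes of Igf1.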

Other observations

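The genes whose levels followed each member most closely were found over the 20 arrays after subtracting each scan day's mean, among 8179 genes. The genes on an array share its sample and scale factor, so these correlations are descriptions. For Igf1r the most alike genes were Mon1a (Pearson r 0.923) and Clptm1 (0.842). For Igf2 they were Cd79b (0.839) and Qtrt1 (0.804), and for Igfbp3 Psme4 (0.784) and Luc7l (0.715). Igfbp6 was most like the muscle and stress fibre genes Csrp2 (0.716) and Zyx (0.687). Igfbp4 was most like Trappc4 (0.682) and Golm2 (0.641). The saturated Igf1 probe was most like Rps19l1 (0.911, saturated on 5 arrays) and Pdgfra (0.896, saturated on 15), and the unsaturated upstream probe like Pfn1 (0.692) and Zfp580 (0.661), both saturated on 0 arrays. Between members r ran from -0.371 (Igf1 and Igf2) to 0.284 (Igf1 and Igfbp3), both with Igf1 read by its saturated probe. Among pairs without Igf1 it ran from -0.241 (Igf1r and Igfbp3) to 0.27 (Igfbp3 and Igfbp4). These pairs were not selected, so they cannot be set beside values that are the highest among 8179 genes.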
